A study of Homo sapiens with 6 samples.

Results

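The genes described here are human selenoprotein genes, measured in 3 leukaemia cell lines with and without an shRNA against CXXC5. Of the 10 genes listed, 9 had an array feature carrying only their own symbol and were measured, out of 22411 genes named on the array. They were SELENOP, SELENOT, SELENOW, SELENOS, SELENOK, GPX1, GPX4, MSRB1 and the selenophosphate synthetase SEPHS2, each with 1 feature. The platform listed SELENOT and SELENOK under their older symbols, SELT and SELK. SELENOH, which encodes a nucleolar redox protein, shared its feature with CTNND1, so no value is given for it. The set was drawn up with earlier results of these data known, among them a higher SELENOP value with the CXXC5 shRNA. Differences between the shRNAs are therefore given for these genes as a description, with no test.

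Selenoproteins contain selenocysteine, an amino acid read from a UGA codon when a stem-loop in the mRNA recruits a dedicated insertion complex. Selenocysteine is built on its own tRNA, with selenophosphate as the selenium donor, and most of the resulting enzymes reduce peroxides or oxidised protein residues. SELENOP is a secreted protein, made above all by the liver, that carries several selenocysteines and delivers selenium to cells through lipoprotein-receptor-family receptors. When selenium is short, the transcripts of GPX1 and SELENOW are among those known to fall first, whereas GPX4 is known to be kept.

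Total RNA of proliferating K562, UT7-5.3 and MV4-11 cells was measured on 6 whole-transcript arrays. Lentiviral vectors had brought either an shRNA against CXXC5 (shRINF, after the alternative name RINF) or a control shRNA (shcontrol) into the cells, and there was 1 array for each line with each shRNA. All groups thus carried a lentiviral shRNA. The labels give neither shRNA sequence nor the time after transduction. K562 is a chronic myeloid leukaemia line with erythroid features, UT7-5.3 derives from a cytokine-dependent megakaryoblastic line, and MV4-11 is an acute leukaemia line with monocytic features. K562 and MV4-11 grew in RPMI and UT7-5.3 in alpha-modified minimum essential medium with GM-CSF, all with fetal calf serum, so for UT7-5.3 the line and the medium cannot be told apart. Nothing in the labels describes a second culture of any line.

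Values are log2 expression levels after RMA, a method that corrects background and brings arrays to a common distribution. Array medians lay between 4.64 and 4.71, and the arrays of a line correlated across features at 0.993 or more. CXXC5, a zinc finger protein that binds CpG-containing DNA, had a lower level with shRINF in each line: the difference was -0.45 for K562, -0.66 for UT7-5.3 and -0.63 for MV4-11 (limma adjusted p = 0.152). The lines differed in their lineage markers. The mean of the erythroid markers was 9.79 to 9.87 in K562 against 5.90 to 6.01 in MV4-11, and that of the granulocytic and monocytic markers 8.95 to 9.01 in MV4-11 against 5.76 to 5.80 in K562. UT7-5.3 had the higher megakaryocytic mean, 5.91 to 6.13, and also an erythroid mean of 9.36 to 9.45. Some defining markers were low throughout: the platelet gene PPBP lay between 2.97 and 3.24 and the monocyte gene CD14 between 4.50 and 4.63 on all 6 arrays. In such bulk samples, fewer cells of a type and less RNA per cell cannot be told apart.

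The regions just before the start sites of SELENOP, GPX1 and SELENOW are shown because, among the 9 measured members, these 3 had the widest differences between shRNAs or lines. Each is the 250 bases before the RefSeq start site in GRCh38.p14, written 5′ to 3′ on the gene's strand. Capitals mark CG dinucleotides, the core of the sequence that CXXC zinc fingers bind, and in SELENOP the letters TATAAA. The window of SELENOP is chr5:42811893-42812142, minus strand. That of GPX1 is chr3:49358354-49358603, minus strand, and that of SELENOW is chr19:47778453-47778702, plus strand.
SELENOP: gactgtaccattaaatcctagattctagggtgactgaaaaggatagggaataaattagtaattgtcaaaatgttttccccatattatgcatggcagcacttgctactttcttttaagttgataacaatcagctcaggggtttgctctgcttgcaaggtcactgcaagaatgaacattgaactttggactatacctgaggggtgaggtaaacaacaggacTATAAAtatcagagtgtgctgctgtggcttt
GPX1: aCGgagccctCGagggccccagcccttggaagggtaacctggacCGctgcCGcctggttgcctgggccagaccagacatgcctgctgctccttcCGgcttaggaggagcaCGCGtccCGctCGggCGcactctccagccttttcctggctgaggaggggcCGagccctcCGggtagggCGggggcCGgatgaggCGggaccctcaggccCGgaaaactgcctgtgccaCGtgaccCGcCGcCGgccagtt
SELENOW: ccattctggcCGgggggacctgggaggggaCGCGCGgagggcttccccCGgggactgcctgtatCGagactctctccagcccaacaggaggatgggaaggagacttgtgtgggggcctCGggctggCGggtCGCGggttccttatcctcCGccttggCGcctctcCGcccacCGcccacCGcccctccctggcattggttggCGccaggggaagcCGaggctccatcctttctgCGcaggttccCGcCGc

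The SELENOP window held 0 CG dinucleotides, as did 6.06% of the 35116 promoter windows in the table. The 11 windows of the other members, SELENOH included and GPX4 with 3 start sites, held 14 to 37, against a median of 11 over all windows. The first letter of TATAAA in SELENOP lay 31 bases before the start site. On either strand, 10.7% of all windows held TATAAA, and among the members only the windows of SELENOP and SEPHS2 did. TGACNNNGC, the core of the antioxidant response element, was found on either strand in 10.9% of all windows and in those of SELENOP and SELENOK. In SELENOP the match was on the reverse strand and did not overlap TATAAA. These matches describe the letters of the windows, and binding was not measured.

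SELENOP was higher with shRINF in each of the 3 lines. In K562 its level was 5.94 with shcontrol and 6.09 with shRINF, a difference of 0.15 log2 units or 1.11-fold. In UT7-5.3 it was 5.58 and 6.18, a difference of 0.60 or 1.52-fold. In MV4-11 it was 5.63 and 6.60, a difference of 0.97 or 1.96-fold. The shcontrol levels were not far above log2 5, the value a gene had to reach on at least 2 arrays to be tested. APOA2, a hepatocyte marker, lay in a similar range, between 5.83 and 6.08 on the 6 arrays. No detection calls were used, so these folds are uncertain. The 3 shRINF arrays lay above all 3 shcontrol arrays, so the groups did not overlap. The mean difference was 0.57 ± 0.41 (SD, n = 3 lines), and that of CXXC5 was -0.58 ± 0.11 (SD, n = 3). The sizes were alike in the mean but not in each line: CXXC5 differed by -0.45, -0.66 and -0.63 in the same order. Without MV4-11 the mean SELENOP difference was 0.375, and without K562 it was 0.785.

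The order of the lines by SELENOP level differed between the shRNAs, with 1 array behind each value and no test. With shcontrol K562 had the highest SELENOP level, while UT7-5.3 and MV4-11 lay 0.05 apart. With shRINF MV4-11 had the highest level, 0.51 above K562, and K562 the lowest, 0.09 below UT7-5.3. Gaps as small as 0.05 and 0.09 on single arrays do not settle an order. Among the 15311 genes that passed the low-value filter (log2 5 or more on at least 2 arrays), 25, SELENOP itself counted, had a difference in MV4-11 at least as high as that of SELENOP. In UT7-5.3 224 genes did, and in K562 1104. Higher by 0.5 or more with shRINF were 1.16% of genes in MV4-11, 3.27% in UT7-5.3 and 0.0523% in K562. SELENOP was the 1 member of 9 above that size in MV4-11 and in UT7-5.3, and no member reached it in K562. No member was lower by 0.5 or more, as 0.0914% of genes were in K562, 1.16% in UT7-5.3 and 0.901% in MV4-11. Because the set was drawn up with this contrast in view, nothing is read from these counts.

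Markers of other cells that make SELENOP were measured beside it. For 7 hepatocyte markers, the summed linear level was 171 to 180 on the shcontrol arrays and 159 to 167 on the shRINF arrays, and the albumin gene ALB lay between 3.03 and 3.21 on all 6. For 9 macrophage markers it was 271 to 311 and 261 to 283, and the scavenger receptor gene CD163 lay between 3.47 and 3.57. Single macrophage markers went in both directions, at low levels. F13A1 was 4.42 with shcontrol and 4.41 with shRINF in K562, 5.05 and 5.32 in UT7-5.3, and 4.54 and 4.88 in MV4-11. C1QC was lower with shRINF in UT7-5.3, at 5.55 and 5.22. At or above log2 5 were 2 of the 7 hepatocyte markers on each array and 4 to 6 of the 9 macrophage markers. The hepatocyte sum was lower with shRINF in each line. The macrophage sum was lower in K562 and UT7-5.3 and went from 271 to 276 in MV4-11, and its part in the SELENOP difference was not tested.

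In MV4-11, where the SELENOP difference was widest, single granulocytic and monocytic markers differed between the shRNAs in both directions, which their list mean does not show. Among the neutrophil granule genes, MPO, CTSG and ELANE had higher values with shRINF. MPO was 8.88 with shcontrol and 9.75 with shRINF, CTSG 10.70 and 11.92, and ELANE 10.79 and 11.88. AZU1, also a granule gene, was at 10.14 and 10.16. LYZ, which encodes lysozyme, was 12.33 and 11.49, the integrin gene ITGAM 7.36 and 6.66, and CSF1R, a receptor of monocytic cells, 6.60 and 5.97. Of the other measured markers, FLT3 was at 9.88 and 9.61 and CD14 at 4.63 and 4.55, and SPI1 was slightly lower with shRINF, at 8.12. With 1 array per shRNA these differences have no replicate check in MV4-11, and their part in the SELENOP difference was not tested.

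**Figure D1:**
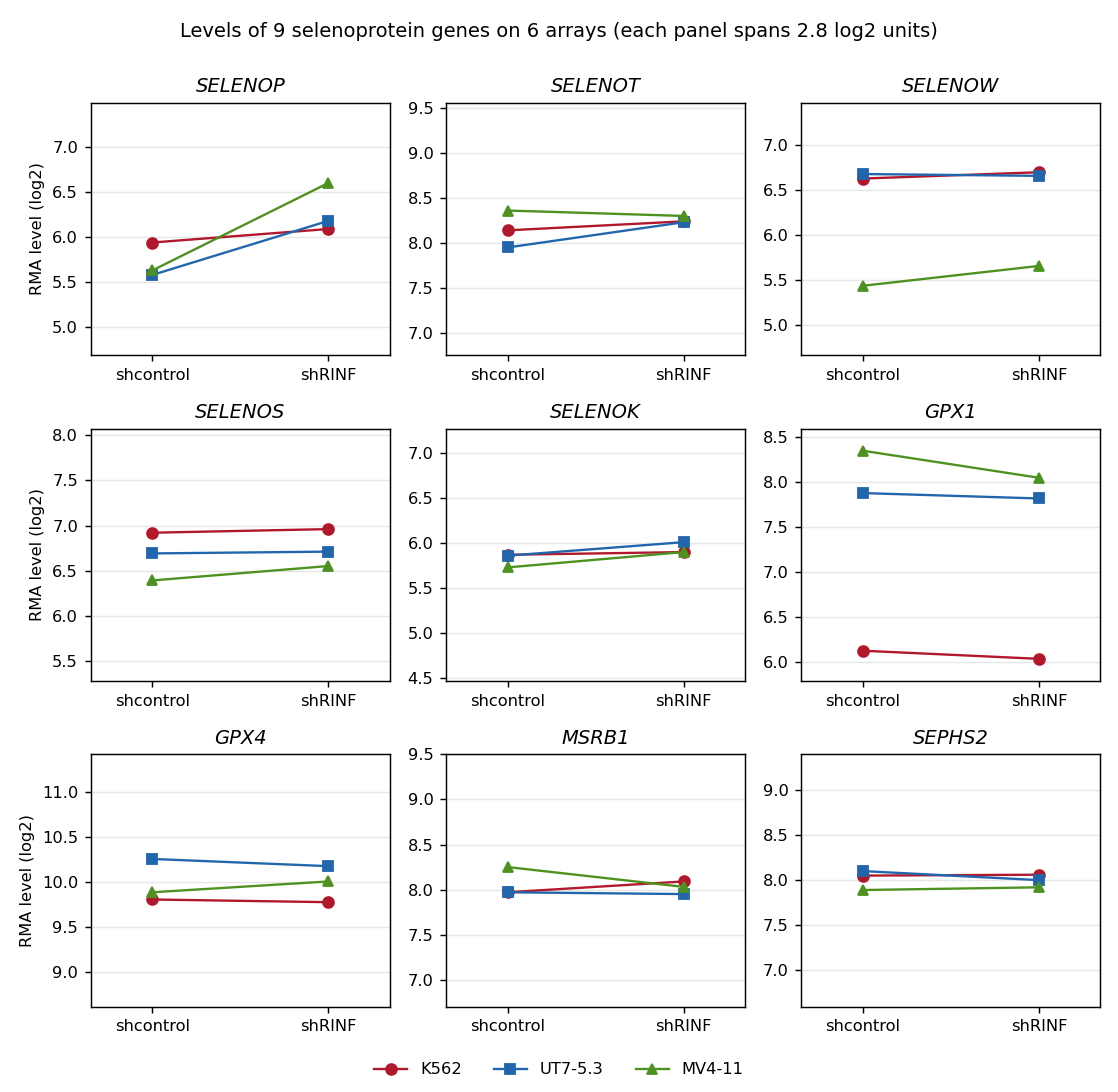
RMA level (log2, y axis) of the 9 measured genes with shcontrol and shRINF (x axis); each line joins the 2 arrays of 1 cell line, and every panel spans the same number of log2 units. SELENOP rises along all 3 lines, most steeply in MV4-11, while GPX1 separates K562 and SELENOW separates MV4-11 from the other lines.

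With SELENOP counted, 7 of 9 members were higher with shRINF in K562, 4 in UT7-5.3 and 6 in MV4-11, beside 51.9%, 42.4% and 49.0% of all genes. The other 8 members had smaller mean differences than SELENOP. Their differences between shRINF and shcontrol ran from -0.09 to 0.12 in K562, from -0.10 to 0.28 in UT7-5.3 and from -0.30 to 0.22 in MV4-11. Their medians were 0.035, -0.02 and 0.075 in the same order, beside 0.01, -0.06 and 0.00 over all genes. The SD of the differences over all genes was 0.103, 0.259 and 0.179.

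SELENOK, an ER membrane protein that partners the palmitoyltransferase ZDHHC6, had levels of 5.87, 5.86 and 5.73 with shcontrol and 5.90, 6.01 and 5.90 with shRINF, in the order K562, UT7-5.3 and MV4-11. It was the only other member whose groups did not overlap, with a mean difference of 0.12 ± 0.08 (SD, n = 3). Over all genes, 0.379% had every shRINF array above every shcontrol array, 3.74% had every one below and 4.11% did either, and the count of 2 of 9 members is a description here. SELENOS, an ER membrane protein of the degradation machinery for misfolded proteins, differed by 0.04, 0.02 and 0.16. SELENOT, a thioredoxin-like ER protein, had differences of 0.10, 0.28 and -0.06 in that order. Its shRINF arrays spread from 8.23 to 8.30 and its shcontrol arrays from 7.95 to 8.36, so the groups overlapped. SELENOP, SELENOK and SELENOS were thus higher in all 3 lines, as were 13.7% of all genes.

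GPX1, the cytosolic glutathione peroxidase, was the 1 member lower in all 3 lines, as were 15.3% of all genes. For K562, UT7-5.3 and MV4-11 its differences were -0.09, -0.06 and -0.30, with a mean of -0.15 ± 0.13 (SD, n = 3). Without MV4-11 the mean was -0.075. GPX4, which reduces lipid hydroperoxides in membranes, had values of -0.03, -0.08 and 0.12. MSRB1, a methionine sulfoxide reductase, had 0.12, -0.02 and -0.22. SELENOW, a small redox protein, differed by 0.07, -0.02 and 0.22, and SEPHS2 by 0.01, -0.10 and 0.03. In these 4 genes and SELENOT the sign changed between lines.

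**Figure D2:**
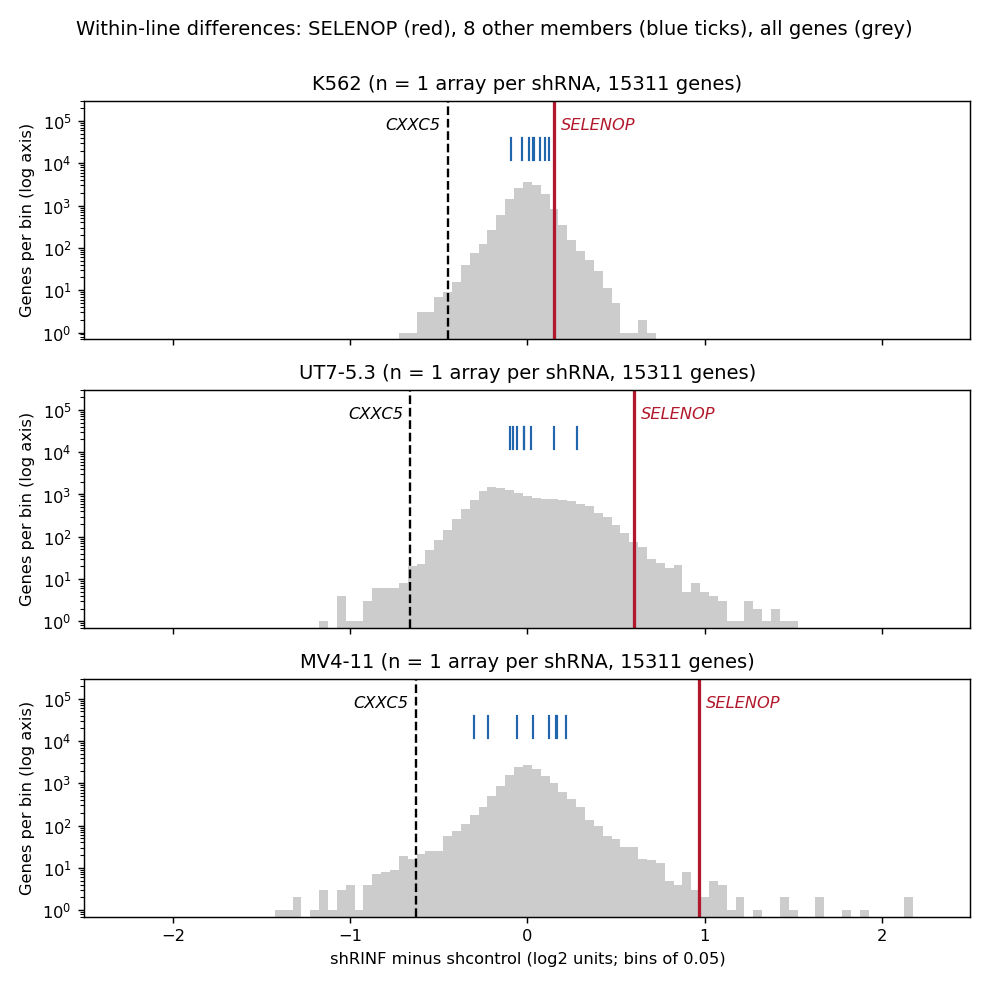
Distribution of the shRINF minus shcontrol difference (x axis, log2 units) over 15311 genes in each line (grey, number of genes on a log axis), with SELENOP in red, the 8 other members as blue ticks and CXXC5 as a dashed line. SELENOP lies right of the centre in K562, at 0.15, where 1104 genes, itself counted, had a difference at least as high. It lies towards the right tail in UT7-5.3 and MV4-11, at 0.60 and 0.97.

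Across the 3 lines, limma with the line as a block called 0 of 15311 genes different between shRINF and shcontrol at an adjusted p under 0.05 (0% called), and 983 genes, or 6.42%, had an unadjusted p under 0.05. Without MV4-11 the count was 52. None of 47 tested genes of 6 selenium and thiol pathway lists was called. Of the 9 other selenoproteins tested, SELENOI, an ethanolamine phosphotransferase, had differences of 0.00, 0.26 and 0.32, and SELENON, an ER protein of muscle and calcium handling, had -0.09, -0.72 and 0.19 (limma adjusted p = 0.767 and 0.771). The median difference of this list was -0.02, beside -0.01 over all genes. DIO1, DIO2, DIO3, GPX3 and GPX6 lay below the filter, and TXNRD3 was not analysed here.

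Genes of selenocysteine synthesis and insertion had a median difference of 0.07 over 12 genes. ALKBH8, which modifies the selenocysteine tRNA, had differences of 0.06, 0.36 and 0.09 in K562, UT7-5.3 and MV4-11, and SECISBP2L, a relative of the stem-loop binding protein, of -0.10, 0.35 and 0.18. LRP8, the receptor that takes up SELENOP in brain and testis of mice, differed by 0.05, 0.04 and 0.03. LRP1, another receptor of that family, had -0.04, -0.29 and -0.06. In MV4-11, where SELENOP differed most, the methionine sulfoxide reductase gene MSRB3 was higher by 0.82, against -0.03 in K562 and -0.10 in UT7-5.3. SLC7A11, the cystine transporter that feeds glutathione synthesis, was higher by 0.78 in UT7-5.3 and had -0.17 and 0.04 in K562 and MV4-11. DERL2 and SEL1L, parts of the ER degradation machinery, had mean differences of 0.23 ± 0.15 and 0.18 ± 0.10 (SD, n = 3). None of these was past the threshold, and limma's adjusted p lay between 0.767 and 0.876 for the genes named in this paragraph.

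The lines were compared pairwise in a limma fit of line and shRNA, with 2 arrays per line, and calls needed both a 2-fold difference and an adjusted p below 0.05. The 2 arrays of a line carry different shRNAs. With the shRNA fitted, these p-values measure how unevenly the shRNA difference ran across the lines, moderated by limma over all genes. They do not measure a spread between cultures of a line. Between K562 and UT7-5.3, 1 of 9 members was called, beside 9.85% of all genes. Between MV4-11 and UT7-5.3, 1 of 9 was called, beside 13.6%, and between MV4-11 and K562, 2 of 9, beside 15.1%. Those called were GPX1 and SELENOW. Lower in K562 than in UT7-5.3 were 5.85% of all genes, and lower in MV4-11 than in UT7-5.3 7.08%. Between MV4-11 and K562, 8.04% were higher in MV4-11 and 7.06% lower. With no fold minimum 2, 2 and 3 members passed, beside 41.6%, 48.3% and 50.4% of all genes. The median size of the members' differences was 0.10, 0.235 and 0.15 in these comparisons, against 0.225, 0.275 and 0.29 over all genes.

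GPX1 was low in K562. Its level there was 6.13 with shcontrol and 6.04 with shRINF. In UT7-5.3 it was 7.88 and 7.82, and in MV4-11 8.35 and 8.05. Both K562 arrays lay below the 4 arrays of the other lines. K562 minus UT7-5.3 was -1.765 on the log2 scale (± 0.11, SE, limma adjusted p = 2.39e-08). MV4-11 lay 4.33-fold above K562 (2.115 ± 0.11, SE, limma adjusted p = 2.17e-09). MV4-11 was 0.35 above UT7-5.3, with an adjusted p of 0.0173 by limma but under 2-fold, so it was not called.

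SELENOW was low in MV4-11. Its level there was 5.44 with shcontrol and 5.66 with shRINF. In K562 it was 6.63 and 6.70, and in UT7-5.3 6.68 and 6.66. The MV4-11 arrays lay below all 4 others, and those of K562 and UT7-5.3 overlapped. MV4-11 was lower than UT7-5.3 by 2.17-fold (-1.12 ± 0.11, SE, limma adjusted p = 1.54e-06) and than K562 by 2.17-fold (-1.115 ± 0.11, SE, limma adjusted p = 1.40e-06). The interval of the difference between K562 and UT7-5.3 was -0.24 to 0.23 (95%). GPX1 and SELENOW, both known as transcripts sensitive to selenium supply, had their low levels in different lines. The part of selenium supply in these levels was not tested.

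GPX4 and SELENOS differed by less than 2-fold. GPX4 levels were 9.81 and 9.78 in K562, 9.89 and 10.01 in MV4-11, and 10.26 and 10.18 in UT7-5.3. K562 lay -0.425 ± 0.11 (SE) from UT7-5.3, with a limma adjusted p of 0.00587, and MV4-11 did not differ from K562 beyond its error (0.155, 95% interval -0.08 to 0.39). SELENOS levels ran downwards from K562, at 6.92 and 6.96, through UT7-5.3, at 6.69 and 6.71, to MV4-11, at 6.39 and 6.55. The MV4-11 and K562 ends of that order differed by -0.47 ± 0.11 (SE, limma adjusted p = 0.00200), and neither neighbouring pair passed, at adjusted p-values of 0.0891 and 0.0916. With single arrays left out, this SELENOS difference ran from -0.535 to -0.405. The GPX4 difference between K562 and UT7-5.3 ran from -0.4875 to -0.3625. Neither of the 2 stayed under the adjusted p threshold in all of those fits.

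SELENOT, SELENOK, MSRB1 and SEPHS2 had an adjusted p above 0.1 in all 3 comparisons by limma, and their line means spanned 0.12 to 0.24. The interval of each of their differences lay within -0.38 to 0.49, inside the limits of a 2-fold difference. SELENOP had a wider SE between lines, 0.15. In a comparison added after the data were seen, MV4-11 minus K562 was -0.31 on the shcontrol arrays and 0.51 on the shRINF arrays, with a fitted difference of 0.10 (95% interval -0.23 to 0.43). K562 minus UT7-5.3 was 0.36 and -0.09 in the same order.

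**Figure D3:**
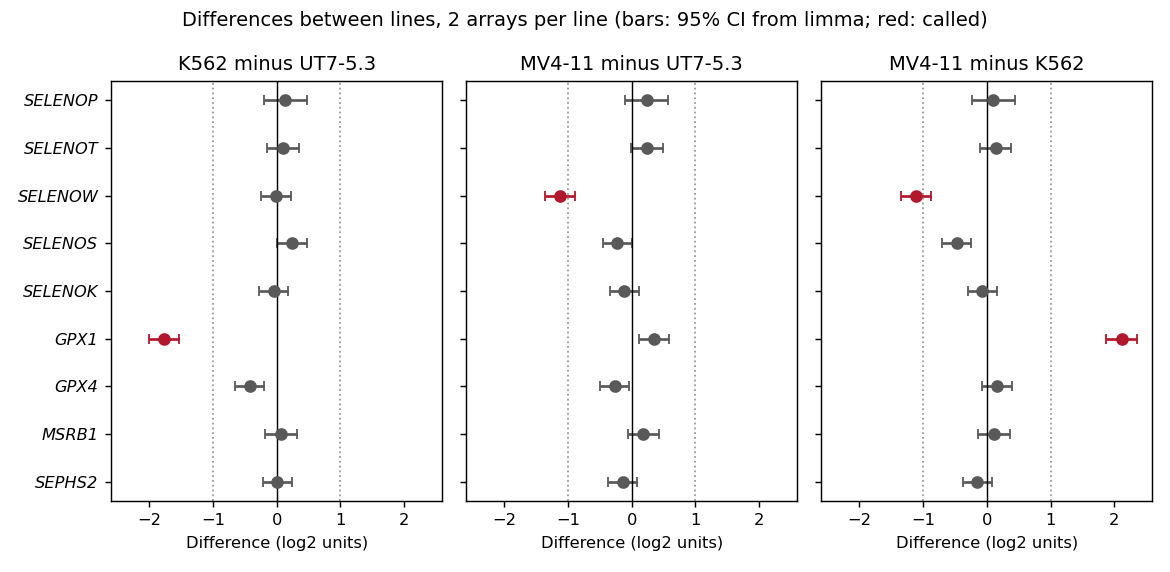
Fitted differences between pairs of lines (x axis, log2 units) for the 9 measured genes, with 95% intervals from limma, 2 arrays per line; dotted lines mark 2-fold and red marks called genes. GPX1 stands out in both comparisons with K562 and SELENOW in both with MV4-11, while the other 7 genes lie inside the 2-fold lines.

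Across the 6 pathway lists, limma called 5 of 47 genes between K562 and UT7-5.3, 8 between MV4-11 and UT7-5.3, and 11 between MV4-11 and K562. The backgrounds were the 9.85%, 13.6% and 15.1% given above, and both counts with MV4-11 include MSRB3, which passed the filter through MV4-11 alone. None of the 9 other selenoproteins was called in any comparison. SELENOF, which assists protein folding in the ER, lay at 9.91 and 9.93 in K562, 9.94 and 9.92 in MV4-11, and 10.34 and 10.50 in UT7-5.3. SELENOM, also an ER protein, lay at 5.38 and 5.52 in MV4-11, 5.72 and 5.76 in K562, and 6.11 and 5.89 in UT7-5.3.

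In the machinery that makes and inserts selenocysteine, 1, 2 and 2 of 12 genes were called in the 3 comparisons. The shares over all genes were 9.85%, 13.6% and 15.1%, so these counts do not set the list apart. SARS1, the synthetase that loads serine on the selenocysteine tRNA, was at 7.80 and 7.61 in MV4-11, 3.32-fold below K562 (limma adjusted p = 3.67e-08) and 2.39-fold below UT7-5.3 (1.06e-06). TRIT1, a tRNA isopentenyltransferase, was at 8.94 and 8.99 in K562 and 7.21 and 7.17 in MV4-11, 3.42-fold lower. SECISBP2, the stem-loop binding protein, was 2.00-fold higher in MV4-11 than in UT7-5.3, at the edge of the call rule. SEPHS2 itself lay between 7.89 and 8.10 on all 6 arrays. Of 5 genes tested for selenium uptake and recycling, PRDX6, a peroxiredoxin with a cysteine active site, was at 10.22 and 10.21 in K562 and 9.15 to 9.23 elsewhere. SELENBP1, a selenium-binding methanethiol oxidase, was 2.35-fold lower in MV4-11 than in K562.

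Of 6 genes for enzymes of the same families that use cysteine in place of selenocysteine, 4 were tested, and GPX5 and GPX8 lay below the filter. MV4-11 minus UT7-5.3 was called for GPX7, MSRA and MSRB3, beside 13.6% of all genes, and MV4-11 minus K562 for GPX7 and MSRB3, beside 15.1%. MSRB3 passed the filter only through its MV4-11 arrays, at 6.53 and 7.35, so its calls support nothing further. On the other 4 arrays it lay between 4.49 and 4.59, below the array medians, and no fold is given. GPX7, an ER peroxidase, was at 6.79 and 6.51 in MV4-11 and between 4.94 and 5.10 elsewhere, at the low-value filter. MV4-11 lay 3.12-fold above K562 (limma adjusted p = 5.29e-08), a fold that is uncertain with K562 so low. MSRA was 2.43-fold higher in MV4-11 than in UT7-5.3 (limma adjusted p = 7.08e-07), where it was at 5.21 and 5.00, also near that filter. It was not called against K562. MSRB2 lay between 6.49 and 6.65 on all arrays and was not called in any comparison. MSRB1, the selenoprotein of that enzyme group, was not called in any comparison.

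Genes of glutathione supply and lipid peroxidation went in different directions. SLC7A11 was at 10.75 and 10.79 in MV4-11, 8.36 and 8.19 in K562, and 7.28 and 8.06 in UT7-5.3, so MV4-11 lay 5.64-fold above K562 (limma adjusted p = 4.61e-08) and 8.57-fold above UT7-5.3. GCLC, the catalytic subunit of the enzyme that begins glutathione synthesis, was 2.69-fold lower in K562 than in UT7-5.3. Its level in MV4-11 was also 2.03-fold below that in UT7-5.3. GSS, which completes glutathione, was 2.33-fold lower in MV4-11 than in K562. ACSL4, which supplies the lipids that GPX4 protects, was 2.23-fold lower in K562 than in UT7-5.3 and 2.05-fold lower than in MV4-11. Among partners of SELENOS and SELENOK, ZDHHC6 was at 7.98 and 8.03 in K562, 2.57-fold below MV4-11, and SEL1L was 2.05-fold lower in K562 than in MV4-11.

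**Figure D4:**
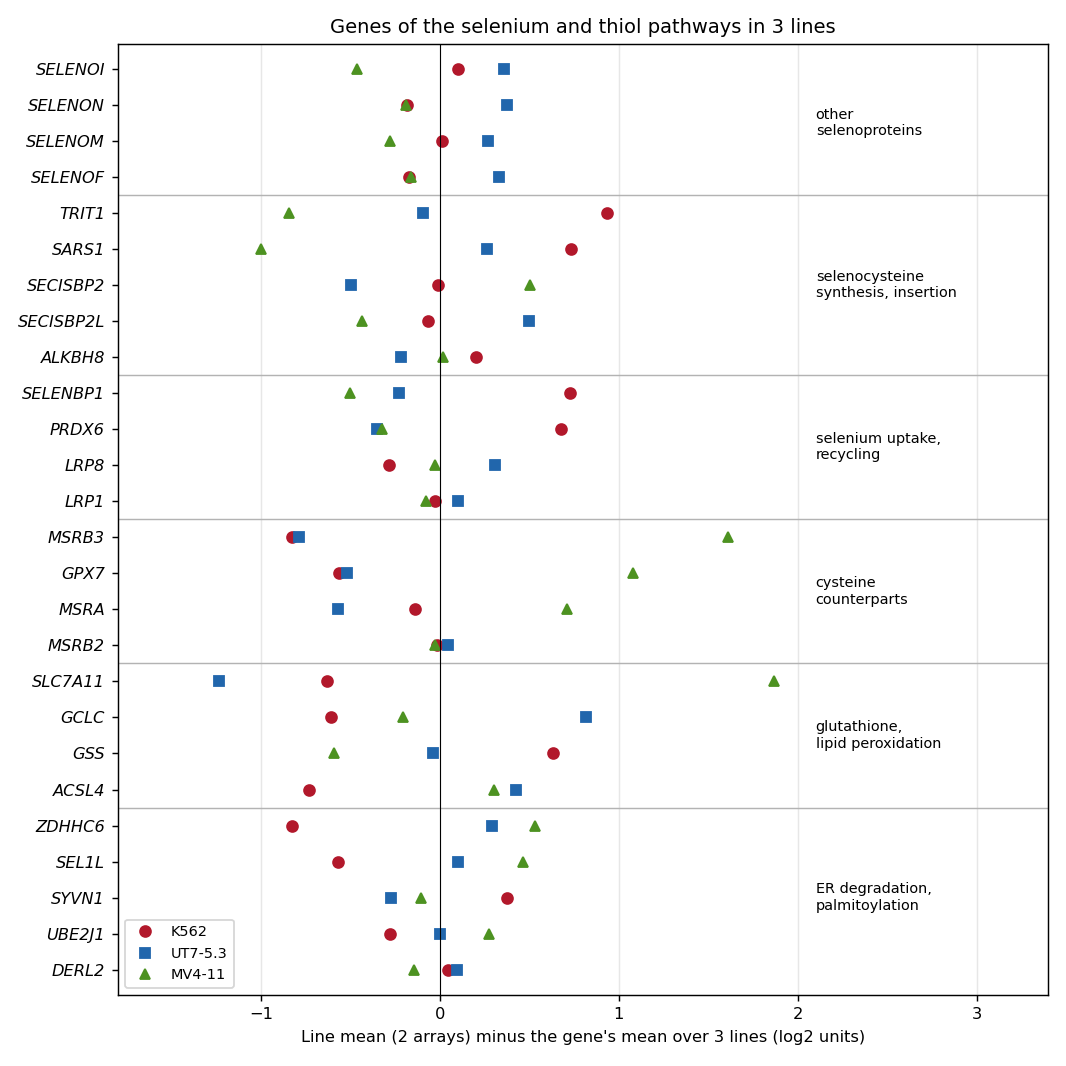
Line means of the named pathway genes, each relative to the mean of that gene over the 3 lines (x axis, log2 units; 2 arrays per point), grouped by list. MSRB3, GPX7 and SLC7A11 lie furthest right in MV4-11, and the 4 selenoprotein genes at the top stay within a narrower range.

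By Pearson correlation over the 6 arrays, the genes most like SELENOP were SLC39A10 (0.898), NT5DC1 (0.877), RNY4P13 (0.845), RNA5SP141 (0.841) and BAG2 (0.827), among 9377 genes that varied enough to be compared. SLC39A10, a zinc importer, was at 8.87 and 9.03 in K562, 8.38 and 8.74 in UT7-5.3, and 8.38 and 9.17 in MV4-11, so its differences of 0.16, 0.36 and 0.79 followed the same order. For GPX1 the most alike of 3169 genes were NFKB1 (0.999), CSF2RA (0.998) and SNORA20 (0.998). All 3 had their lowest levels on the K562 arrays, CSF2RA at 5.74 and 5.79 against 7.85 to 8.58 elsewhere. The 6 points are 3 pairs from 3 lines, so these correlations describe the arrays and are not tests. SLC39A10 was picked by its correlation with these same SELENOP values, so the shared order of its differences adds no support.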

How the data were processed

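The authors deposited log2 expression levels per transcript cluster. The submitters' processing notes name RMA and the Affymetrix Expression Console software. Base 2 is RMA's usual scale, and the range of the values, 1.63 to 13.89, fits it. No source used here gives a genome build or software version, and no detection calls were used. RMA would remove a change shared by most transcripts. Of 67528 features, 23781 had 1 gene symbol, 1543 several and 42204 none listed, and symbols were updated through a RefSeq table. Features with several symbols were not named. Where a gene had several features, that of highest mean was taken. The low-value filter asked for log2 5 on 2 arrays and left 15311 genes. All 9 measured members passed.

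The cell line was the block, as the labels give a shRINF and a shcontrol array for every line. Fits used limma 3.58.1 in R 4.3.3 (lmFit, eBayes) with Benjamini-Hochberg adjustment over all genes tested. The shRNA fit had 2 residual degrees of freedom. The p-values measure only the spread between these arrays, and their number limits the precision. The fits were also run on simulated data with independent normal noise and, for the shRNA fit, the same shift in every line. In the measured data the differences varied between lines, so nothing about these arrays is read from the simulation.

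The members and lists were chosen with earlier results of these data known. Genes named beside the members were CXXC5, from each list up to 4 by range between lines and up to 2 by mean shRINF difference, and the 5 and 3 genes most like SELENOP and GPX1. Alternatives covered the filter, the feature rule, normalization, the variance trend, the block, the shRNA term, the fold minimum and leaving out lines or arrays. Promoter sequences are RefSeq's, GRCh38.p14, and all 10 listed genes matched.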

Additional observations from a re-analysis of the deposited data

Results flagged for a closer look

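In 5 members the shRINF minus shcontrol difference had opposite signs in 2 lines, which with 1 pair of arrays per line was not tested. The gap between the highest and the lowest line was 0.34 for SELENOT (UT7-5.3 against MV4-11) and 0.34 for MSRB1 (K562 against MV4-11). It was 0.24 for SELENOW, 0.20 for GPX4 and 0.13 for SEPHS2, each between MV4-11 and UT7-5.3.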

How the results depend on the processing

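The calls of GPX1 and SELENOW between lines were kept in every tested alternative, including the arrays left out in turn and each renormalization. The size of limma's adjusted p moved widely. After cyclic loess it was 9.26e-05 for GPX1 between K562 and UT7-5.3, beside 2.39e-08 in the main fit. For SELENOW between MV4-11 and UT7-5.3 it was 0.000221, beside 1.54e-06. From the arrays of 1 shRNA alone, an alternative chosen after seeing the data and without a test, the differences kept their direction, SELENOW at -1.19 and -1.04 between MV4-11 and K562. With each of the 6 arrays left out, 1450 to 1522 genes were called between K562 and UT7-5.3, 1962 to 2149 between MV4-11 and UT7-5.3, and 2290 to 2392 between MV4-11 and K562, and 1, 1 and 2 members. Pathway genes called were then 4 to 6, 5 to 8 and 10 to 11, the 5 coming without the MV4-11 shRINF array. With no fold minimum the counts of genes were 6364, 7401 and 7724, of members 2, 2 and 3, and of pathway genes 28, 27 and 26. Quantile normalization and cyclic loess each gave 3 pathway genes between K562 and UT7-5.3, and the cause was not tested. Between shRINF and shcontrol, leaving out a line gave 0 to 52 genes, the 52 without MV4-11, and the SELENOP mean ran from 0.375 to 0.785. The fit with no replicate block, in which the pairing by line was dropped, called 0 genes. SELENOP kept a positive mean in all 11 alternatives, but only the renormalizations could have changed its sign, as its difference was positive in all 3 lines. Its mean was 0.60 after median centring, 0.61 after quantile normalization and 0.63 after cyclic loess. Differences of members between lines that were not called changed sign or reached 0 in 24 cases.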
